A study of Mus musculus with 12 samples.

Results

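The Hox genes of mouse embryonic fibroblasts were examined on 12 oligonucleotide arrays, as every non-control probe that the array's own annotation names Hoxa, Hoxb, Hoxc or Hoxd with a paralogue number. This rule gave 49 of the 41174 probes on the array and 38 of its 27670 named features. They were 11 Hoxa, 10 Hoxb, 8 Hoxc and 9 Hoxd genes, and Hoxc11, the other Hox gene in the RefSeq table, had no probe under the rule.

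Mouse embryonic fibroblasts are connective tissue cells grown out of embryos and kept in culture. The study set female cells with both copies of Sirt1 (WT) beside cells with 1 mutant copy (Het) and cells of the knockout (KO), at 4 arrays a genotype; SIRT1 removes acetyl groups from proteins and uses NAD to do so. All were grown in DMEM with 10% serum, 25 mM glucose and 4 mM glutamine, without treatment, and were harvested while dividing; embryo age and the deleted part of Sirt1 are not stated in the labels. Each title ends in a number, 1, 2, 3 and 5 in WT and 2, 3, 4 and 5 in Het and KO, whose meaning the labels do not give. They also do not say whether arrays of a genotype came from separate embryos, so the p-values take in no more than the spread among these arrays, which may be technical.

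Hox genes encode homeodomain transcription factors. They lie in 4 clusters, and along each cluster the paralogue number rises from genes used near the head to genes used near the tail and, in limbs, near the fingers. Fibroblasts keep much of the Hox pattern of the body site they came from through many divisions in culture, so a Hox profile is widely used as a record of anatomical origin.

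Levels are log2 of the scanner's processed intensity minus the 75th percentile of the array over non-control probes, so 0 is the 75th percentile and 1 unit is a doubling. For each gene the probe that was brightest on average was used, and levels of different genes are not compared. The arrays numbered 3 stood apart from the others of their genotype, so the results are given with them and without them. The array labelled female WT number 3 also went against its label: Xist, which is transcribed from the inactive X chromosome, was at -2.94 there and at 1.66 to 3.42 on the other 11 arrays, and the Y-linked Eif2s3y was at 0.92 there and at -10.06 to -3.92 elsewhere. Next highest in Eif2s3y were Het number 3 and KO number 3, at -3.92 and -5.02. A Sirt1 probe was lower in KO (-0.47 ± 0.29, SD, n = 4) than in WT (0.36 ± 0.21, SD, n = 4; exact two-sided permutation p = 0.0286, the smallest that 4 against 4 allows), and a second Sirt1 probe was not (0.81 ± 0.41 and 0.79 ± 0.24). All 16 fibroblast markers were well above background on all 12 arrays. On slide 4 (WT number 5, Het number 5, KO numbers 4 and 5) 77.2% to 78.2% of spots were well above background, against 60% to 65.1% on slides 1 to 3, and probes near background read lower there.

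Of the 38 Hox genes, 14 were well above background on all 12 arrays, 22 on 1 to 11 arrays, and Hoxb1 and Hoxd1, the most anterior members of their clusters, on none. The probes lie on chromosome 6 for Hoxa (chr6:52125851-52222444), chromosome 11 for Hoxb (chr11:96304167-96476235), chromosome 15 for Hoxc (chr15:102914520-103022308) and chromosome 2 for Hoxd (chr2:74513664-74608718), in build mm7 as the array's annotation gives it. The annotation of the Hoxb3 probe (chr11:96454839-96454898) lists a Hoxd3 transcript beside those of Hoxb3, so its signal cannot be assigned to Hoxb3 alone; no other Hox probe lists a second gene of the RefSeq table.

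**Figure D1:**
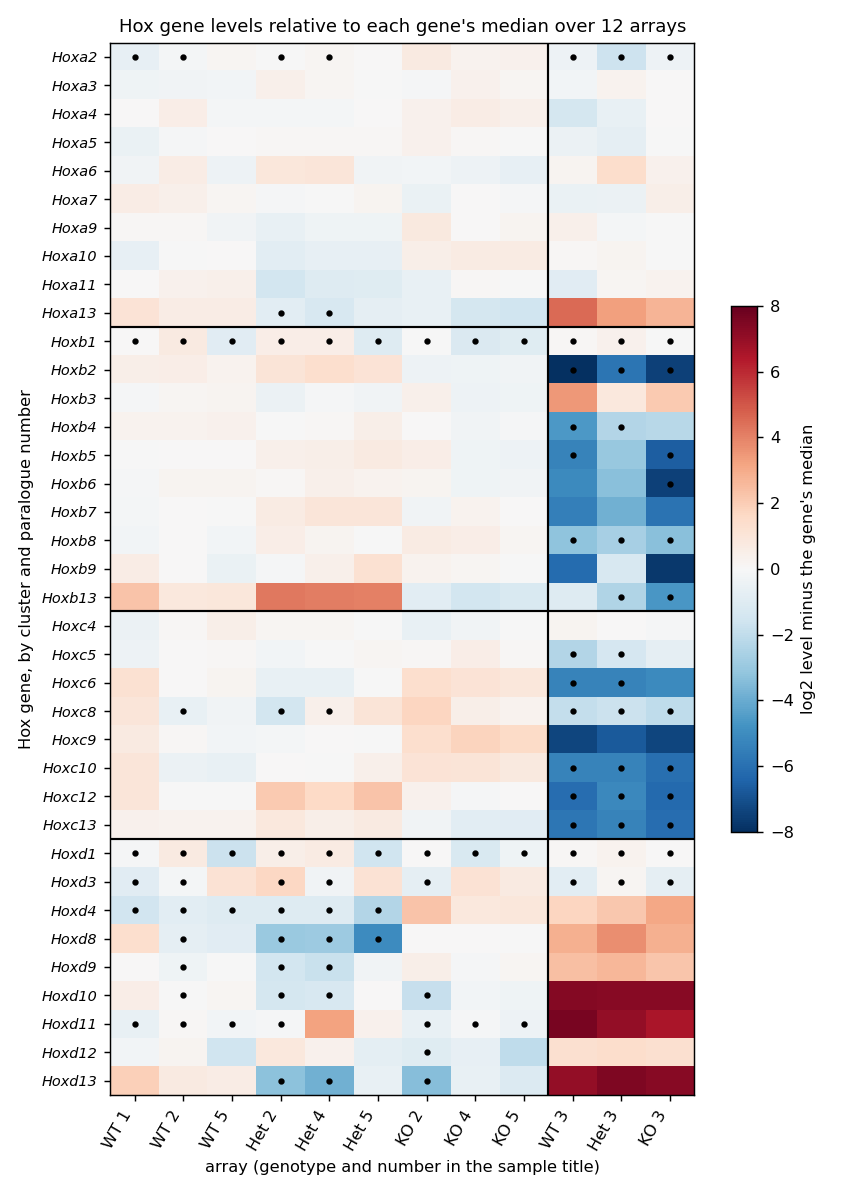
Level of 37 Hox genes (rows, by cluster and paralogue number) on each of the 12 arrays (columns, the 3 numbered 3 at the right), as log2 level minus the median of the gene over 12 arrays, with colours ending at 8 units either way; a black dot marks an array on which the gene was not well above background. The arrays numbered 3 are red over most of Hoxd and in Hoxa13, blue over most of Hoxb and Hoxc, and pale over most of Hoxa.

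The numbers in the titles were first compared all together, with genotype as a covariate. Genes well above background on at least 3 of the 12 arrays were tested, 36 of them Hox genes. Levels differed between numbers in 14 of the 36 Hox genes tested (F test in limma, adjusted p under 0.05 over 21243 features), against 0.758% of all features. They were Hoxa13, 5 Hoxb genes, 5 Hoxc genes and 3 Hoxd genes, with adjusted p from 0.000938 for Hoxc13 to 0.0493 for Hoxb6. On the arrays numbered 3, 4 of the 14 were higher and 10 lower than on the others.

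The arrays numbered 3 were then set against the 9 others, again with genotype as a covariate. The p-values of this comparison support nothing on their own, since number 3 was singled out by earlier results. Of the 36 Hox genes tested 25 were called (6.85% of all features), 9 higher (3.17%) and 16 lower (3.68%). The 3 arrays lay above all 9 others in 8 Hox genes (3.06% of all features) and below all of them in 14 (3.94%). By cluster, 7 Hoxd genes were higher and none lower, 8 Hoxb genes were lower and 1 was higher, 7 Hoxc genes were lower and none higher, and in Hoxa 1 was higher and 1 lower. The median difference was 0.02 for the 11 Hoxa genes tested, -5.15 for the 9 Hoxb genes, -5.76 for the 8 Hoxc genes and 3.59 for the 8 Hoxd genes, against -0.14 for all features. With genes that number 3 lacked throughout set at their bound, the Hoxc median was -4.41 and the Hoxb median -5.15. Genes at background on only 1 or 2 of these arrays (Hoxb4, Hoxb5, Hoxb6, Hoxb13, Hoxc5 and Hoxc6) kept their readings there, so these medians are not bounds. With such readings raised to the lowest signal well above background, Hoxb4, Hoxb5, Hoxb6 and Hoxb13 differed by -2.33, -4.12, -5.35 and -3.25. Each of the 25 genes had the same direction in all 3 genotypes. With a single array left out, 22 to 24 of the 25 stayed called, and the calls lost were among Hoxa4, Hoxc8 and Hoxd12, each of which was lost for most of the 12 arrays; without WT number 3, whose sex-linked genes went against its label, 22 stayed called.

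**Figure D2:**
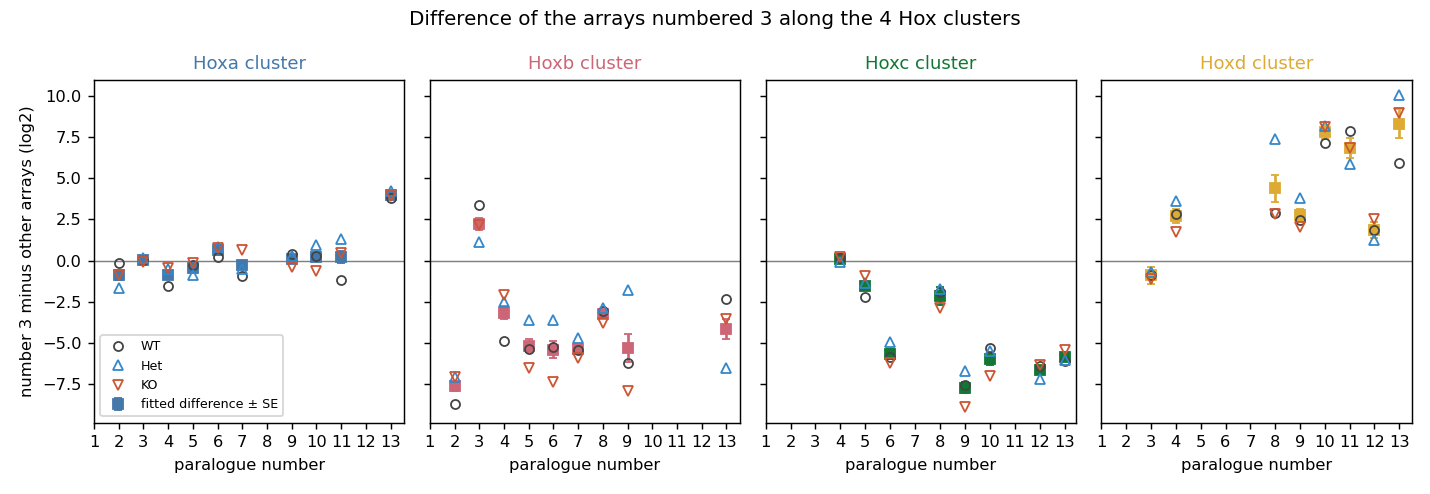
Difference between the arrays numbered 3 and the other arrays (log2) for 35 tested Hox genes, by paralogue number in 4 cluster panels; squares with bars are the fitted difference ± SE, and open symbols are the difference within WT, Het and KO, each 1 array against 3. Hoxd genes from Hoxd4 on and Hoxa13 lie above 0, Hoxb genes other than Hoxb3 and Hoxc genes other than Hoxc4 lie below, and the fitted differences of the other Hoxa genes stay between -0.90 and 0.62.

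Hoxd13, which patterns the fingers and the genital region, had the largest difference among the genes higher on number 3. Its level was 3.58 on WT number 3, 4.03 on Het number 3 and 3.84 on KO number 3, while the 9 other arrays ran from -7.26 through a median of -4.04 to -1.5. The 3 arrays lay close together and far above all others, of which 6 of 9 were well above background. The difference was 8.32 ± 0.90 (SE, 318-fold, limma adjusted p = 0.000614), and the second Hoxd13 probe gave 7.99.

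Hoxd10 and Hoxd11, which pattern the limb and the hind part of the trunk, gave a like picture. Hoxd10 was at 0.87 on WT, 0.78 on Het and 0.79 on KO number 3, and at -8.36 to -5.97 with a median of -6.71 on the others. Hoxd11 was at -0.27, -0.87 and -1.37 on the same arrays, and at -8.47 to -4.65 with a median of -7.96 on the others. Both genes were well above background on every array numbered 3 but on only 5 and 2 of the 9 others, and neither overlapped. The measured differences were 7.80 ± 0.41 (223-fold, adjusted p = 6.52e-06) and 6.84 ± 0.61 (115-fold, adjusted p = 0.000215). With the arrays on which they were not well above background set at the lowest signal well above background there, the folds were 128 for Hoxd10, 56.4 for Hoxd11 and 254 for Hoxd13. The 4 other Hoxd genes called higher were Hoxd8 (4.38 ± 0.84, adjusted p = 0.0140), Hoxd9 (2.79 ± 0.36, adjusted p = 0.00167), Hoxd4 (2.72 ± 0.43, adjusted p = 0.00486) and Hoxd12 (1.87 ± 0.47, adjusted p = 0.0408). With background readings set at that level too, Hoxd8 and Hoxd4 differed by 3.70 and 1.58. Of these, Hoxd4 overlapped the other arrays, where KO number 2 stood at -4.65. Hoxd3 was well above background on no array numbered 3 (difference -0.89 ± 0.52, limma adjusted p = 0.307). It was so only on the 4 arrays of slide 4, where the lowest such signal was lower and no array was numbered 3. Its other probe was well above background on no array.

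In Hoxa the difference was seen at the tail end of the cluster. Hoxa13, which acts with Hoxd13 in the hand and foot, was at -0.56 on WT, -1.82 on Het and -2.36 on KO number 3, and at -6.69 to -4.01 with a median of -5.84 on the others. The groups did not overlap, the difference was 3.99 ± 0.23 (15.8-fold, adjusted p = 1.55e-05), and the second probe gave 4.67. Hoxa11, the next gene and a regulator of forearm and uterus, stood at 1.22, 2.34 and 2.46 on WT, Het and KO number 3 within the range of the others (0.67 to 2.53), a difference of 0.22. Hoxa10 and Hoxa9 differed by 0.21 and 0.10, and Hoxa3 by 0.02. Of the 11 Hox genes not called, 9 were Hoxa genes. Hoxa4, an anterior gene, was called lower (-0.84 ± 0.22, adjusted p = 0.0465), with overlap.

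Hoxb changed in a block. Hoxb2, which acts in the hindbrain and is the most anterior Hoxb gene detected, was at -8.15 on WT, -5.72 on Het and -7.29 on KO number 3, and at -0.28 to 1.5 with a median of 0.59 on the others. It was well above background on none of the 3 arrays and on all 9 others, so it was at least 99.1-fold lower (measured difference -7.61 ± 0.27, adjusted p = 5.05e-07). For such genes the bound sets the mean of the other arrays against the higher, on each array numbered 3, of its own signal and the lowest signal well above background there.

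Hoxb6 and Hoxb7, trunk genes in the middle of the cluster, lost most of their signal. Hoxb6 stood at -4.01, -2.21 and -6.38 on WT, Het and KO number 3, against 0.77 to 1.51 with a median of 1.32. Hoxb7 stood at -4.50, -2.83 and -4.90, against 0.70 to 1.99 with a median of 1.05. On both genes Het number 3 was the highest of the 3 arrays yet lay below every other array. The differences were -5.39 ± 0.50 (41.9-fold, adjusted p = 0.000288) and -5.35 ± 0.22 (40.8-fold, adjusted p = 8.21e-07).

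Hoxb9, a gene of the thorax, was the least even. It stood at -4.60 on WT and -6.18 on KO number 3 but at 0.31 on Het number 3, and at 1.04 to 2.76 with a median of 1.75 on the others. All 3 arrays were below the others, Het by little (-5.29 ± 0.85, adjusted p = 0.00548), and with slide as a block the call was lost (-4.78, adjusted p = 0.0888). Of the others called lower, Hoxb5 (-5.15 ± 0.42, adjusted p = 0.000134) and Hoxb4 (-3.16 ± 0.40, adjusted p = 0.00159) were each well above background on 1 array numbered 3, and differed by -4.12 and -2.33 with the others set at the lowest signal well above background. Hoxb8 was on none and was at least 2.17-fold lower (adjusted p = 1.55e-05). Hoxb13, a gene of the tail and prostate that lies far from the rest of its cluster, was lower by -4.13 ± 0.61 (adjusted p = 0.00364), or -3.25 with background readings raised in the same way, but overlapped, because its level among the other arrays ran from -5.33 to 0.37.

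Hoxb3 was the Hoxb exception, at 0.97 on WT, -1.66 on Het and -0.42 on KO number 3 against -2.95 to -2.07 elsewhere (2.23 ± 0.34, adjusted p = 0.00426). Its only probe is the one that also lists Hoxd3. The probes named Hoxd3 itself were not well above background on the arrays numbered 3. The brighter was so only on slide 4, which held no array numbered 3, and the other on no array.

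Hoxc fell from Hoxc5 to Hoxc13. Hoxc9, a thoracic gene, was at -6.03 on WT, -5.43 on Het and -6.04 on KO number 3, and at 1.10 to 3.07 with a median of 1.39 on the others. It was well above background on all 12 arrays and was lower by -7.70 ± 0.34 (209-fold, adjusted p = 1.62e-06), with the 3 arrays close together and no overlap. Hoxc6, a gene of the neck and upper trunk, was at -6.24, -6.21 and -5.95 against -1.48 to 0.48 with a median of -0.63 (-5.66 ± 0.29, adjusted p = 5.84e-06), and was well above background on 1 of the 3.

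By the probes used here, the tail-side Hoxc genes were well above background on no array numbered 3 and on all 9 others; the second Hoxc10 probe was so on 1 of the 3 and gave -3.79. Hoxc10, which acts in the lumbar region and hind limb, was at -5.93, -5.93 and -6.60 against -1.15 to 0.53 with a median of -0.16. Hoxc12 was at -8.15, -7.21 and -8.28 against -2.11 to 0.21 with a median of -1.72. Hoxc13, a regulator of hair and nail keratins, was at -8.09, -7.67 and -8.41 against -3.21 to -1.46 with a median of -2.02. None of the 3 genes overlapped, and they were at least 56.3-fold, 29.6-fold and 15.3-fold lower (adjusted p = 1.68e-05, 7.49e-07 and 2.32e-07). Hoxc5 (-1.51 ± 0.23, adjusted p = 0.00402, well above background on 1 array numbered 3, and -0.98 with the others raised) and Hoxc8 (at least 1.01-fold lower, adjusted p = 0.0428) had smaller differences, while Hoxc4, at the head end, differed by 0.11 (adjusted p = 0.754).

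Members of a paralogue group, which share ancestry and part of their function, thus went apart by cluster. In 6 paralogue groups (4, 8, 9, 10, 12 and 13) called genes lay in both directions. In group 13 Hoxa13 and Hoxd13 were higher and Hoxb13 and Hoxc13 lower. In group 9 Hoxd9 was higher, Hoxb9 and Hoxc9 lower, and Hoxa9 at 0.28, -0.24 and -0.14 within the range of the others (-0.70 to 0.71). Over the 12 arrays the median Pearson r between levels was 0.52 for 147 pairs of the same cluster, -0.17 for 37 pairs of the same paralogue group in different clusters and -0.08 for the 446 remaining pairs. Between Hoxb and Hoxc genes of different paralogue groups it was 0.86 over 66 pairs and between Hoxb and Hoxd genes -0.75 over 67; all pairs share the same arrays and the split by number 3, so these values are descriptions.

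The slides allowed the comparison within a slide and a genotype for 2 pairs of arrays: WT number 3 with WT number 2 on slide 3, and Het number 3 with Het number 4 on slide 1. All 25 called genes had the same direction in both pairs. Hoxd13 was higher by 6.29 and 11.29, Hoxd10 by 7.42 and 8.57, and Hoxa13 by 3.97 and 4.58. Hoxc9 differed by -7.43 and -6.79, Hoxb2 by -8.84 and -7.23, and Hoxb9 by -6.22 and -1.67. Het number 4 was not well above background in Hoxd13, Hoxd10 and Hoxa13, nor was WT number 2 in Hoxd10. In Hoxb2 neither WT nor Het number 3 was. The differences there rest in part on background readings. With slide as a block in the fit 17 of the 25 genes were called, and Hoxa4, Hoxb3, Hoxb9, Hoxb13, Hoxc8, Hoxd4, Hoxd8 and Hoxd12 were not.

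**Figure D3:**
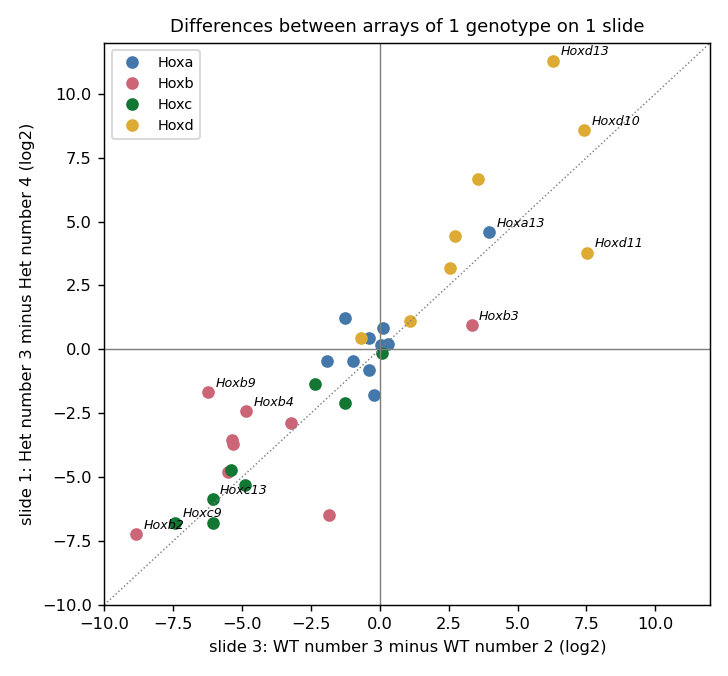
Difference between an array numbered 3 and another array of the same genotype on the same slide for 35 tested Hox genes: WT on slide 3 (x axis, log2) and Het on slide 1 (y axis, log2), with the line of equal differences dotted. Readings not well above background are plotted as measured. Hoxd genes other than Hoxd3 lie at the upper right, up to 6.29 and 11.29 for Hoxd13, with Hoxb3 among them, and Hoxb genes other than Hoxb3 and Hoxc genes other than Hoxc4 lie at the lower left, down to -8.84 and -7.23 for Hoxb2; Hoxd3 and Hoxc4 lie near 0.

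A second probe existed for 9 of the 25 called genes. It had the same sign in 8 and a difference of over 2 units in 6: Hoxa13, Hoxb2, Hoxb9, Hoxc10, Hoxd9 and Hoxd13. The second Hoxb2 probe is annotated to the minus strand, opposite to the gene, and gave -4.40. The exception was Hoxb6, whose second probe (chr11:96408006-96408065, mm7, plus strand) was well above background on all 12 arrays and gave 0.09, against -5.39 for the probe at chr11:96410288-96410347. The second Hoxb8 probe never rose well above background (-0.14).

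Promoter windows are printed for Hoxd13, for Hoxa13, and for genes of group 9, whose members went apart, as far as the RefSeq table held them (Hoxa9, Hoxa13, Hoxd9 and Hoxd13; GRCm38.p6). They show the 250 bases before the annotated start on the gene's strand. Capitals mark TTTATG (the caudal core motif), TGATTNAT (a PBX-HOX motif) and TATAAA (the TATA box), searched on both strands.
Hoxd13 promoter (chr2:74667975-74668224, plus strand): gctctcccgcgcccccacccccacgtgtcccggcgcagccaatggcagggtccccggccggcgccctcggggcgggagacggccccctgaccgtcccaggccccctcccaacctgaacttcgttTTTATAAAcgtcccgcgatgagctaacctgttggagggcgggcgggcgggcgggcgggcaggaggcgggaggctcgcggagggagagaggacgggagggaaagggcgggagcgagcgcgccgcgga
Hoxa13 promoter (chr6:52260881-52261130, minus strand): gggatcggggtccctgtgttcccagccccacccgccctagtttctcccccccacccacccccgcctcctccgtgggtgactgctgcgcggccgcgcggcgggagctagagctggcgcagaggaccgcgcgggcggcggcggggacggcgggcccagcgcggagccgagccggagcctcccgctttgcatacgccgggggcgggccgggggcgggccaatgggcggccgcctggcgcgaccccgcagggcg
Hoxd9 promoter (chr2:74697513-74697762, plus strand): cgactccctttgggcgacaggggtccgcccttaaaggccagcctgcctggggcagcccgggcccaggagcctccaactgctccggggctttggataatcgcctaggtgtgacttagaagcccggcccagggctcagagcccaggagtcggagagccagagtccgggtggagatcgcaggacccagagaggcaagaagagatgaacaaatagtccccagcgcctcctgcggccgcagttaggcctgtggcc
Hoxa9 promoter (chr6:52227371-52227620, minus strand): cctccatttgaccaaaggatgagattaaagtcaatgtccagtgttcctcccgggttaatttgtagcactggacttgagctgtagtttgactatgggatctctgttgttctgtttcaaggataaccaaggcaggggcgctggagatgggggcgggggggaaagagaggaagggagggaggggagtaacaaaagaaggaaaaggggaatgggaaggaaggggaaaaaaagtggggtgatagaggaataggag
The 3 printed windows of genes that were higher on number 3 held 31 CpG sites (Hoxd13), 35 (Hoxa13) and 13 (Hoxd9), and that of Hoxa9 held 3. The median was 6 over 32817 promoters and 12.5 over the 24 Hox windows. Over the windows of all genes called higher the count ran from 2 to 35, and over those of Hoxa genes not called from 3 to 28. Only the Hoxd13 window matched a motif, an overlapping pair of TATAAA on the 2 strands. TATAAA occurred in 4 of the 24 Hox windows and 12.4% of all windows, TTTATG in 5 and 10.8%, and TGATTNAT in 2 and 2.83%. A match is a run of letters and not a measured binding site.

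Whether the number 3 difference varied with genotype was tested by an interaction, in which each genotype has 1 array numbered 3 and the spread comes from the others. It was called for 8 of the 36 Hox genes (6.32% of all features), 6 of them in Hoxb. Hoxb9, well above background on all 12 arrays, differed by -6.22 in WT, -1.76 in Het and -7.89 in KO (adjusted p = 0.00745). Hoxb6 differed by -5.22 in WT and -3.59 in Het, while KO number 3 was at background, and set at the lowest signal well above background it gave -7.24 (adjusted p = 0.00396). Hoxb5 differed by -3.57 in Het, and by -4.43 in WT and -4.36 in KO with number 3, at background in both, set in that way (adjusted p = 0.0267). In these 3 genes Het number 3 stood closest to the other arrays of its genotype. The interaction was fitted to the differences as measured, -7.36 for Hoxb6 in KO, and -5.36 and -6.52 for Hoxb5 in WT and KO. The raised values were not tested.

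The interaction was also called for Hoxb4 (adjusted p = 0.00539), Hoxb2 (adjusted p = 0.0191) and Hoxb13 (adjusted p = 0.0323), but at least 2 of the 3 arrays numbered 3 were at background there, so an order of the genotypes was not measured. Where number 3 was well above background, Hoxb4 differed by -2.10 in KO and Hoxb13 by -2.34 in WT. Hoxa11, which was not called between number 3 and the others, differed by -1.18, 1.34 and 0.49 (adjusted p = 0.0343). The call count fell to 2 with another background correction, or without scaling, and to 3 without WT number 3.

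Between genotypes, on all 12 arrays, 26 Hox genes were well above background on all arrays of at least 1 genotype and were tested. None was called by limma between Het and WT (1.18% of all features), KO and WT (1.65%) or KO and Het (0.998%), at unadjusted p under 0.05 there were 1, 3 and 5, and the lowest adjusted p was 0.143, 0.197 and 0.154. Hoxb13 had the largest difference between KO and Het, -4.54 ± 1.43 (adjusted p = 0.220), and between KO and WT, -2.79 ± 1.43 (adjusted p = 0.368). Hoxd13 had the largest between Het and WT, -2.63 ± 2.76 (adjusted p = 0.677). In each of these genes the array numbered 3 lay far from the others of its genotype. The groups did not overlap for 1, 1 and 3 Hox genes, against 9.31%, 8.84% and 10.6% of all features. The median size of the difference was 0.55, 0.44 and 0.87 for the Hox genes tested and 0.27, 0.25 and 0.21 for all features.

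The next largest differences had similarly wide errors. Hoxb13 differed by 1.76 ± 1.43 between Het and WT (adjusted p = 0.579), Hoxd13 by -2.03 ± 2.76 between KO and WT (adjusted p = 0.787) and Hoxb9 by -1.89 ± 1.87 between KO and Het (adjusted p = 0.794). These too were genes in which number 3 stood apart. Hoxd8 differed by -2.45 ± 1.61 between Het and WT (adjusted p = 0.481) and by 2.52 ± 1.61 between KO and Het (adjusted p = 0.637). Hoxd4 differed by 2.20 ± 0.96 between KO and WT (adjusted p = 0.275) and by 2.35 ± 0.96 between KO and Het (adjusted p = 0.376). Hoxa13 differed by -1.60 ± 1.27 between Het and WT (adjusted p = 0.566) and by -1.90 ± 1.27 between KO and WT (adjusted p = 0.506).

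Without the arrays numbered 3, with 3 arrays a genotype, 33 Hox genes were tested. Of these 9 were called between Het and WT (12.2% of all features), 7 between KO and WT (17.1%) and 12 between KO and Het (9.12%). The comparisons share arrays, the first pair those of WT. Of the genes called, 4 were higher (6.13% of all features) and 5 lower (6.06%) in Het than in WT. In KO, 3 were higher (8.55%) and 4 lower (8.58%) than in WT, and 7 were higher (4.64%) and 5 lower (4.48%) than in Het. The share of Hox genes called lay nearest to the background between KO and WT. At 3 arrays against 3, the groups did not overlap for 15, 15 and 18 of the 33 Hox genes between Het and WT, KO and WT, and KO and Het. The shares of all features were 32.0%, 35.5% and 35.2%. A gene can pass the filter through the genotype where it is high, so the counts describe the tested genes and not all members. All called genes kept their direction when any other array was left out too, and with slide or title number as a block. With 1 more array left out, 5 to 9 of the 9 genes between Het and WT stayed called (5 without Het number 4), 5 to 7 of the 7 between KO and WT (5 without KO number 4 or 5), and 8 to 12 of the 12 between KO and Het (8 without Het number 4 or any KO array). With slide as a block 5 of the 9, all 7 and 10 of the 12 stayed called.

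Hoxb13 had 3 separate levels. It stood at -1.61, -3.05 and -2.97 on WT numbers 1, 2 and 5, at 0.37, 0.21 and 0.18 on Het numbers 2, 4 and 5, and at -4.70, -5.33 and -5.07 on KO numbers 2, 4 and 5. No genotype overlapped another, which in a single comparison held for 32.0% to 35.5% of all features, with Het highest and KO lowest. Het was higher than WT by 2.80 ± 0.36 (6.98-fold, adjusted p = 0.00226), KO lower than WT by -2.49 ± 0.36 (5.62-fold, adjusted p = 0.00283) and KO lower than Het by -5.29 ± 0.36 (39.2-fold, adjusted p = 9.3e-05). On number 3, Hoxb13 was well above background in WT alone, at -4.89, so Het was not the highest there.

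Hoxb2 had the same order with smaller steps. It stood at 0.59, 0.70 and 0.44 in WT, 1.19, 1.5 and 1.23 in Het, and -0.28, -0.20 and -0.14 in KO. The 3 genotypes did not overlap. Het was higher than WT by 0.73 ± 0.14 (adjusted p = 0.0122), KO lower than WT by -0.78 ± 0.14 (adjusted p = 0.00658) and KO lower than Het by -1.52 ± 0.14 (adjusted p = 0.000332). Hoxb7 was higher in Het than in WT by 0.93 ± 0.18 (adjusted p = 0.0140) and lower in KO than in Het by -0.85 ± 0.18 (adjusted p = 0.0215). No other Hoxb gene was called in any of the 3 comparisons.

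In Hoxc the direction differed along the cluster. Hoxc9 stood at 2.02, 1.39 and 1.10 in WT, 1.13, 1.36 and 1.27 in Het, and 2.63, 3.07 and 2.87 in KO. KO lay above both other genotypes, by 1.35 ± 0.24 over WT (adjusted p = 0.00632) and 1.60 ± 0.24 over Het (adjusted p = 0.00385). Hoxc6 was higher in KO than in Het by 1.52 ± 0.31 (adjusted p = 0.0164).

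The tail-side genes Hoxc12 and Hoxc13 went the other way. Hoxc12 stood at -1.06, -2.09 and -2.08 in WT, 0.06, -0.42 and 0.21 in Het, and -1.72, -2.11 and -2.0 in KO, so Het lay above both. It was higher in Het than in WT by 1.69 ± 0.30 (adjusted p = 0.00900) and lower in KO than in Het by -1.89 ± 0.30 (adjusted p = 0.00533). Hoxc13 was lower in KO, by -0.98 ± 0.19 against WT (adjusted p = 0.0104) and -1.36 ± 0.19 against Het (adjusted p = 0.00306).

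Hoxa differed at its tail end too. Hoxa13 stood at -4.01, -4.53 and -4.50 in WT, -5.96, -6.41 and -5.84 in Het, and -5.67, -6.48 and -6.69 in KO. WT lay above both, the difference being -1.72 ± 0.29 for Het minus WT (adjusted p = 0.00753) and -1.93 ± 0.29 for KO minus WT (3.82-fold, adjusted p = 0.00329). Of the 3 Het arrays 1 was well above background, and with the others set at the lowest signal well above background the Het difference was -1.47. Hoxa10 was higher in KO, by 0.82 ± 0.19 against WT (adjusted p = 0.0211) and 1.33 ± 0.19 against Het (adjusted p = 0.00344). Hoxa11 was lower in Het, by -1.41 ± 0.22 against WT (adjusted p = 0.00545), and higher in KO than in Het by 0.97 ± 0.22 (adjusted p = 0.0277).

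Hoxd genes were near background on these arrays, and their folds are bounds where a genotype was never well above it. KO numbers 4 and 5, but only number 5 of WT and Het, were on slide 4. The lowest signal well above background was at -8.36 to -7.75 there and at -6.26 to -5.49 on the other slides. Whether a Hoxd gene was well above background thus also depended on the slide. Hoxd8 stood at -3.44, -5.53 and -5.73 in WT, -7.80, -7.74 and -9.86 in Het, and -4.80, -4.80 and -4.82 in KO. It was at least 2.94-fold lower in Het than in WT (adjusted p = 0.0140) and at least 3.13-fold higher in KO than in Het (adjusted p = 0.0133). Hoxd4 was well above background on all 3 KO arrays (-4.65, -6.06 and -6.03) and on no WT or Het array. It was at least 1.98-fold higher in KO than in WT (limma adjusted p = 0.00915) and at least 1.83-fold higher than in Het (limma adjusted p = 0.00677). On slide 4, WT number 5 and Het number 5 read -7.96 and -9.28 for Hoxd4. Hoxd13 was lower in Het than in WT by -3.65 ± 0.96 (adjusted p = 0.0425), and Hoxd9 higher in KO than in Het by 1.37 ± 0.36 (adjusted p = 0.0490). Each was well above background on 1 of the 3 Het arrays, and with the others set at the lowest signal well above background the differences were -2.87 and 0.45. Hoxd4, Hoxd8 and Hoxd9 passed the filter through KO alone, and Hoxd13 through WT alone. Their adjusted p-values here therefore support nothing on their own.

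**Figure D4:**
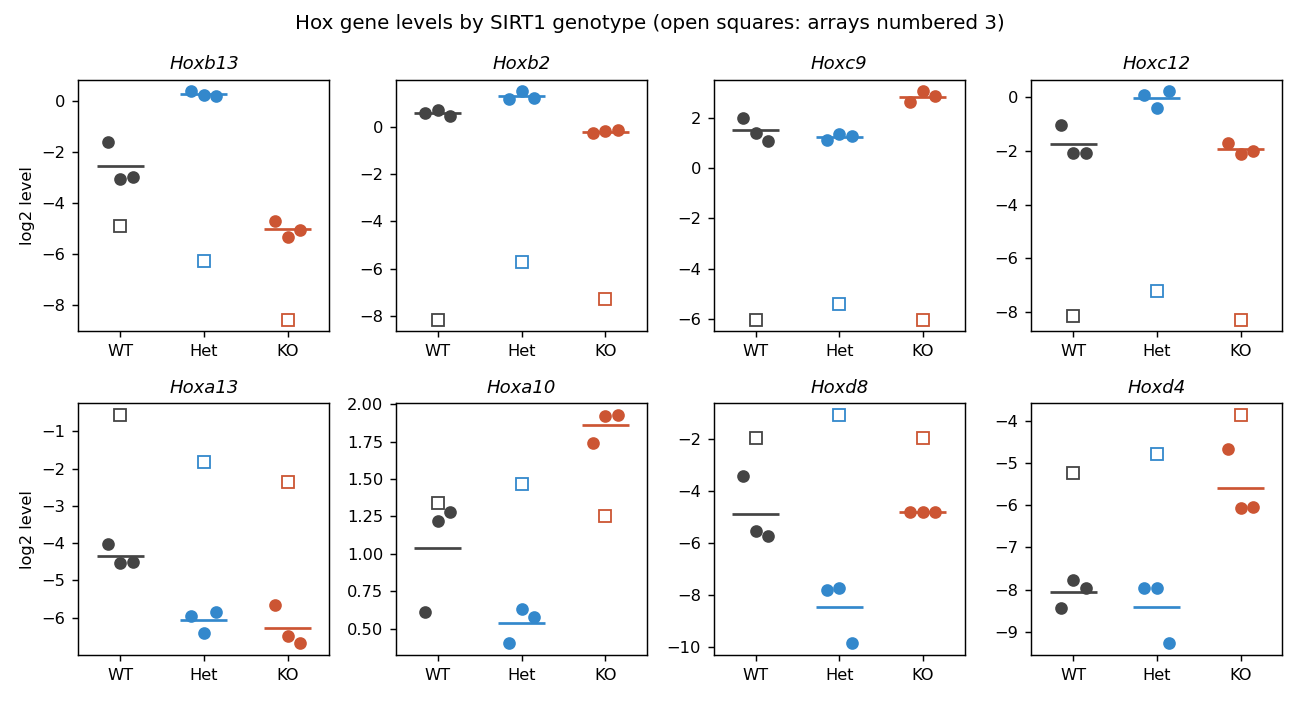
Log2 levels of 8 Hox genes by SIRT1 genotype, 1 point per array; filled circles are the arrays not numbered 3, with their mean as a line, and open squares the arrays numbered 3, and each panel has its own y axis. For Hoxb13 the circles fall at 3 separate levels and every square lies below the circles of its genotype, while for Hoxd8 and Hoxa13 every square lies above them.

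The lists of genes that act with or on Hox genes are read against the 6.85% of all features called between number 3 and the others; no difference between a list and the Hox genes was tested. The TALE homeodomain cofactors (PBX, MEIS, PREP and TGIF), which bind DNA together with Hox proteins, held 1 called gene of 11 tested between number 3 and the others, Meis1, at -0.79 ± 0.20 (adjusted p = 0.0432). Their median was -0.04. Of 31 Polycomb genes, which keep silent Hox genes off, 2 were higher and 2 lower: Scml2 by 0.86 and Ring1 by 0.72, Pcgf5 by -1.36 and Yaf2 by -1.06. The core subunits Ezh2, Eed and Suz12 differed by -0.28, -0.11 and -0.45, not called. By limma none of 15 Trithorax genes, which keep active Hox genes on, was called (1 at unadjusted p under 0.05), the largest being Dpy30 (-0.54, adjusted p = 0.192) and Psip1 (-0.40, adjusted p = 0.220).

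Of 20 tested upstream axial regulators, 2 were called, both enzymes of retinoic acid, a signal that switches on Hox genes in the embryo. Cyp26b1, which degrades it, was higher by 2.48 ± 0.48 (adjusted p = 0.0148) and Aldh1a3, which makes it, by 1.80 ± 0.39 (adjusted p = 0.0228). By limma none was called among 9 ParaHox and Hox-linked homeobox genes (1 at unadjusted p under 0.05), with Evx2 and Gsx2 largest (-0.88 and -0.65). None was called, also unadjusted (0), among 3 noncoding genes of the clusters, with Hoxd3os1 and Hoxaas3 largest (1.11 and -0.49).

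Of 23 tested limb position and axis genes 4 were higher on number 3. Tbx4, which marks the hind limb, stood at -2.42 on WT, -1.43 on Het and -1.02 on KO number 3 against -10.04 to -4.69 on the others (5.17 ± 0.76, limma adjusted p = 0.00330). Of those others 2 WT, 0 Het and 3 KO arrays were well above background for Tbx4, so its difference rests in part on background readings. Msx1, of the distal limb bud, stood at 4.28, 1.85 and 3.02 against -2.90 to -0.74 (4.90 ± 0.39, adjusted p = 0.000115). Neither overlapped. Lmx1b, of the dorsal limb, was higher by 1.49 (adjusted p = 0.0415) and Prrx2 by 1.04 (adjusted p = 0.00399). Sox2, a neural marker, was well above background on all 3 arrays numbered 3 and no other, at least 15-fold higher (limma adjusted p = 0.00111). It passed the filter through those arrays alone, so its p-value supports nothing on its own. Of the 10 neural markers Map2 was the only other called higher (1.48) and Nes was lower (-2.19). The mesothelial marker Msln was lower by -3.11 (adjusted p = 0.0301). Of the other markers, Cdh1 (2.47, epithelial) and Comp (1.93, cartilage) were higher, and Cldn3 (-1.48, epithelial) and Cd14 (-0.95, blood) were lower, as were Emcn (endothelial), well above background on no array numbered 3 and 4 of the others, and Des of muscle, by at least 2.96-fold. The summed level of the 10 neural markers was 5.53 to 10.1 on number 3 and 9.84 to 24.5 elsewhere, that of the 5 mesothelial markers 0.54 to 6.77 and 6.86 to 47.9, that of the 9 blood cell markers 0.598 to 0.72 and 0.764 to 1.89, and that of the 10 cartilage and bone markers 5.63 to 6.49 and 2.74 to 4.96, in multiples of the 75th percentile. Wt1 and Lrrn4 (mesothelium), Ptprc (blood) and Ibsp and Matn1 (bone and cartilage) were well above background on no array. Their part in the Hox differences was not tested.

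Between genotypes on all 12 arrays (1.18%, 1.65% and 0.998% of all features called between Het and WT, KO and WT, and KO and Het) the lists held the following called genes. Pbx4 was lower in Het than in WT (-0.72, adjusted p = 0.0490), the limb gene Shox2 lower in Het than in WT (-4.19) and higher in KO than in Het (3.82), and En1 lower in KO, with 2 of 4 arrays well above background, than in Het (-2.41). Among the markers, the fibroblast surface protein Thy1 was lower in KO than in WT (-3.47) and Het (-2.16), and the matrix protein Dcn lower in KO than in Het (-3.21). Krt8 was higher in Het than in WT (3.36) and Epcam higher in KO than in WT (1.59), each well above background on 1 of the 4 WT arrays. Upk3b was lower in Het, where it was well above background on no array, than in WT, and Mbp was lower in KO than in WT (-3.24). Shox2, En1, Krt8, Epcam and Upk3b had arrays at background in the genotype where they were lower, so they passed the filter only through other genotypes. Their calls therefore support nothing on their own, and their differences rest in part on background readings. The part of all these genes and markers in the Hox differences was not tested. Without number 3, 8 of 21 limb genes were called between Het and WT, 8 between KO and WT and 10 between KO and Het (12.2%, 17.1% and 9.12% of all features). Tbx5, which marks the forelimb, stood at 0.35, 0.22 and 0.74 in WT, -6.94, -6.44 and -5.97 in Het, and -8.37, -7.34 and -7.80 in KO, and was well above background on all 3 WT arrays and on 1 each of Het and KO (Het and WT adjusted p = 1.54e-05). WT number 3 was at -6.44. Tbx5 passed the filter through WT alone, so its adjusted p-value supports nothing on its own, and its remaining Het and KO readings were at background. Pitx1, which marks the hind limb, stood at 1.49, 1.53 and 1.07 in WT, -4.64, -4.05 and -3.22 in Het, and 3.48, 3.89 and 3.77 in KO (KO and Het adjusted p = 1.34e-05). The genotypes did not overlap in Pitx1 (in a single comparison, 32.0% to 35.5% of all features), and the 3 arrays numbered 3 stood at 2.83 to 4.01. In an RNA extract of a whole culture, fewer cells that express a gene and less RNA per cell cannot be told apart.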

How the data were processed

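Cy3-labelled RNA, 500 ng per sample, was hybridised to 12 one-colour arrays and read with Agilent Feature Extraction 9.5, per the file headers and the submitters' processing notes. The deposited values are spot intensities, processed by the authors' scanner software (background subtraction, linear scale). The series table holds the same processed intensity (largest relative difference 0 over 540216 values). There are no read depths; the number of arrays and the signal over background limit the precision.

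Here outlier spots and controls were left out, spots of a probe were averaged as log2 of the deposited intensity, and the 75th percentile of each array over non-control probes was subtracted. The probe with the highest mean over all arrays stood for a gene. Genotypes were compared over genes well above background on all arrays of at least 1 genotype (16835 features), and title numbers over genes so on at least 3 arrays (21243). Models were fitted to all of them with limma 3.58.1 (R 4.3.3), the title numbers with genotype as a covariate, with Benjamini-Hochberg adjustment, and called at 0.05. The procedure was tested on simulated data. The members and all gene lists were chosen with earlier results of these data known. Values array by array are given for called Hox genes (where more than 12 were called, at least the 12 with the largest difference), and each genotype comparison names the 4 largest differences; of a gene list, the called members or the 2 largest differences are named. Array probe names were used as given, and the mm7 positions are per the file headers. The values of 1 Hox gene are not reported here, though the counts hold it. Alternatives were normexp background correction, quantile normalization, no scaling, no filter, another filter, every probe apart, slide and replicate blocks, the series table, and leaving out each array or all numbered 3. Added after seeing the data, Hox differences were also taken with each array on which the gene was not well above background set at the lowest signal well above background there, where its own was lower.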

Additional observations from a re-analysis of the deposited data

Results flagged for a closer look

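In each genotype, a Hox gene's highest or lowest array was set against its nearest neighbour, as the share of the whole range of the 4 arrays that this gap makes up (Dixon's ratio, read against its 95% critical value). Over 57 groups (19 genes in 3 genotypes) the ratio was above it in 39, and in all 39 the array that stood apart was number 3. The 19 genes were picked by their differences in the comparisons above, most of them by those of number 3. The count is therefore a description and cannot be set against a chance rate.

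In Hoxb, number 3 stood low in all 3 genotypes for 5 genes. The ratios in WT, Het and KO were 0.971, 0.956 and 0.98 for Hoxb2, 0.989, 0.83 and 0.86 for Hoxb4, and 0.99, 0.918 and 0.87 for Hoxb5. They were 0.937, 0.926 and 0.929 for Hoxb6 and 0.967, 0.927 and 0.904 for Hoxb7. Hoxb9 passed in WT (0.83) and KO (0.956), and Hoxb13 in Het (0.97) and KO (0.836).

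In Hoxc, number 3 stood low in WT, Het and KO for Hoxc9 (0.885, 0.966 and 0.952), Hoxc12 (0.855, 0.915 and 0.94) and Hoxc13 (0.983, 0.945 and 0.889). Hoxc6 passed in Het (0.895) and KO (0.929), and Hoxc10 in Het (0.922) and KO (0.956).

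Number 3 stood high for Hoxd8 in KO (0.993), Hoxd10 in WT (0.922) and Het (0.833), Hoxd11 in WT (0.922) and KO (0.926), and Hoxa13 in WT (0.868) and Het (0.876).

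The difference between number 3 and the other arrays differed between genotypes, by the interaction in limma, for Hoxb6 (adjusted p = 0.00396), Hoxb4 (0.00539), Hoxb9 (0.00745), Hoxb2 (0.0191), Hoxb5 (0.0267), Hoxb13 (0.0323) and Hoxa11 (0.0343). Each genotype has 1 such array, so these calls rest on single arrays. The fit took background readings as measured. Number 3 was at background in Hoxb4 (WT, Het), Hoxb2 (all genotypes), Hoxb5 (WT, KO), Hoxb13 (Het, KO) and Hoxb6 (KO). Raised to the lowest signal well above background, Hoxb4 differed by -2.66 in WT, -2.24 in Het and -2.10 in KO. Hoxb2 then differed by -6.82, -7.03 and -6.05, and Hoxb13 by -2.34, -6.16 and -1.23. The raised values were not tested, so a genotype difference is not shown for Hoxb4 and Hoxb2.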

How the results depend on the processing

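The 25 Hox genes called on number 3 kept their direction in each of the 20 alternatives that tested them (the genotype filter tested 17 of the 25). Of the 25, 19 stayed called with normexp (Hoxa4, Hoxc5, Hoxc8, Hoxd4, Hoxd9 and Hoxd12 were lost) and 17 with slide as a block. Without a filter 22 stayed called, and with quantile normalization or without scaling 23. Leaving out an array left 22 to 25 Hox genes called. Between genotypes, 0 Hox genes were called in each comparison on all arrays. Without number 3 there were 9 (Het and WT), 7 (KO and WT) and 12 (KO and Het). Leaving out 1 array gave 0 to 1 between Het and WT (1 without WT number 3), 0 between KO and WT and 0 to 2 between KO and Het (2 without Het number 3). Hoxb9, KO minus Het, was -1.89 on all arrays and ran from -2.60 to 0.08 with 1 array left out, reversing at 0.08 without KO number 3. The F test called 14, 8 with the genotype filter (fewer genes tested) and 11 to 15 with an array left out. The interaction called 8, but 2 with normexp or without scaling, 5 without a filter, 4 with slide as a block, and 3 (without WT number 3) to 11 (without WT number 1). Where not given, the cause was not tested. With the title number as a replicate block, 1 Hox gene was called between KO and WT (Hoxa13, -1.67) and 1 between KO and Het (Hoxb13, -4.54). The samples share only a number. As deviations from the genotype mean, levels on same-numbered arrays correlated at 0.22 to 0.43 for number 3 and -0.04 to 0.31 for the others. The F test with slide as a block could not be fitted with WT number 1, alone on its number and slide, and was run without it (13 called; chosen after seeing the data).

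Over all features, calls between Het and WT numbered 198, but 43 with normexp, 79 without scaling (17.7% of them higher, against 57.6%), 41 without a filter or with slide as a block, 62 with the 3-array filter, 86 with the replicate block and 2151 without number 3. Between KO and WT there were 277, against 153 with normexp, 145 without scaling, 95 without a filter, 57 with slide, 169 with the 3-array filter, 113 with the replicate block and 3022 without number 3. Between KO and Het there were 168, against 69 with normexp, 62 without a filter, 79 with slide, 102 with the 3-array filter and 1609 without number 3, and 81.4% were higher without scaling, against 58.3%. The F test gave 161, 49 with normexp, 314 without a filter and 107 with the genotype filter. Number 3 against the others gave 1456, 646 with normexp, 880 without scaling, 681 with slide and 953 without a filter. The interaction gave 1343, 393 with normexp, 705 without scaling and 701 without a filter. With 1 array left out the counts ran from 19 to 1482 (Het and WT), 50 to 1746 (KO and WT), 36 to 394 (KO and Het), 38 to 258 (F test), 846 to 2559 (number 3) and 246 to 2463 (interaction). Without scaling the median of all features was -0.15 between Het and WT (0.08 scaled). Signal over background limits the genes near it: the lowest signal well above background was at -8.36 to -7.75 on slide 4 and -6.26 to -5.49 on the others.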
